A study of Homo sapiens with 10 samples.

Results

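Chromatin-modifying enzymes add or remove chemical marks on histones and DNA. They were followed here across 10 exon arrays of SH-SY5Y, an established cell line from a human neuroblastoma that keeps features of sympathetic neuroblasts. The members were the genes of the KDM, KMT, HDAC, SIRT, DNMT, TET, SETD, PRDM, EZH, KAT and PRMT families that had a row of the deposited table assigned to them alone. This gave 78 of 14232 genes, namely 36 writers, 32 erasers and 10 members of the PRDM family. The untreated group (ctrl) held 5 arrays, numbered 7, 11, 13, 17 and 19 in the sample titles. The paraquat group also held 5, numbered 8, 12, 14, 18 and 20. Both groups were the same line with no other treatment or genetic change named, and the paraquat group had been exposed to paraquat, a herbicide that passes electrons to oxygen and so yields superoxide. How much paraquat was used, for how long, and whether each array had a culture of its own is not given in the sources used here, so the p-values rest on array-to-array spread alone, possibly technical. Values are log2 expression, and a difference of 1 is a 2-fold change.

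Writers include the lysine acetyltransferases, which open chromatin by acetylating histone tails, the lysine and arginine methyltransferases, which can mark genes for use or for silencing, and the DNA methyltransferases. Erasers include the zinc-dependent deacetylases (HDAC), the sirtuins, which consume NAD, the lysine demethylases (KDM) and the TET dioxygenases, which oxidise methylcytosine. Jumonji demethylases and TET enzymes need iron, oxygen and oxoglutarate, so the activity of several erasers is tied to the redox state of the cell. The PRDM proteins carry a relative of the methyltransferase SET domain beside zinc fingers, and most act as transcription factors without a settled enzyme activity, so they were counted as neither writer nor eraser. Transcript levels were measured here, not enzyme activity and not the marks themselves.

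After paraquat, 15 of the 78 members fell and 6 rose, and apart from PRMT6 the called changes were under 2-fold. The linear model (limma, fitted over all 22011 rows, Benjamini-Hochberg adjusted p under 0.05) lowered 19.2% of the members against 14.2% of all genes, and raised 7.69% against 9.55%. In either direction 26.9% of members were called, against 23.8% of all genes. Among genes above the dimmest 33.3% of rows the background was 30.7% in either direction, 18.9% lowered and 11.8% raised, and of the 72 members there 20.8% fell and 8.33% rose. These shares lie near the background. Arrays of the groups did not overlap for 16 members, 11 lower and 5 higher after paraquat, while 19.9% of all genes had groups that did not overlap. Only 1 member, PRMT6, was called and changed at least 2-fold, where 4.32% of all genes did. With arrays weighted by their quality 25 members fell (32.1%, against 19.8% of all genes; 34.7% against 26.1% above the dimmest rows) and 8 rose (10.3% against 12.8%). With consecutive title numbers as a block 22 fell (28.2% against 17.3%, and 30.6% against 23.0% above the dimmest rows) and 6 rose (7.69% against 11.0%). The lowered share thus stood further above the background in these fits. At an adjusted p under 0.01, 6 fell (7.69% against 8.37%) and 3 rose (3.85% against 5.75%), and against a minimum fold of 1.2 only PRMT6 was called.

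The medians of writers and erasers lay close together. The median log2 change was -0.08 over the 36 writers and -0.10 over the 32 erasers, with a median of -0.00 over all genes. Of the writers 7 fell (19.4%) and 1 rose (2.78%), and of the erasers 7 fell (21.9%) and 3 rose (9.38%). Among all genes 14.2% fell and 9.55% rose (18.9% and 11.8% above the dimmest rows). The middle 50% of changes ran from -0.33 to 0.08 for writers and from -0.36 to 0.21 for erasers. Relative to each gene's control mean, the writers' median lay between -0.11 and 0.04 in single control arrays and between -0.17 and 0.03 in single paraquat arrays. For erasers the same medians lay between -0.15 and 0.09 in controls and between -0.20 and 0.07 after paraquat. The ranges of the groups overlapped for writers and for erasers. The plot of changes by role shows that the PRMT family lies mostly below 0, whereas the lysine methyltransferases cluster around it.

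Across all rows the first principal component (42.1% of the variance) separated the groups. On the second (18.2%) control 11 (score -49.0) and paraquat 12 (-27.9) lay lowest, with the other arrays between -6.85 and 24.0. These arrays were often extreme in the members too. Control 11 was the lowest control in 36 of 78 members (46.2%, against 28.8% of genes above the dimmest rows). Paraquat 12 was the lowest paraquat array in 35 (44.9% against 31.5%), and paraquat 14 the highest in 36 (46.2% against 37.5%). Control 11 and paraquat 12 were both lowest in 26 members (33.3%), compared with 14.1% of all genes and 18.7% of genes above the dimmest rows. Among these 26 were DNMT1, DNMT3A, DNMT3B, TET1, KAT6A, KAT6B, KMT2A, KMT2C, KMT2D, KMT2E and SETD5. In 9 members, among them HDAC1, HDAC8, PRMT2 and PRMT3, both arrays were instead the highest of their group (11.5%, against 12.9% of all genes and 15.9% of genes above the dimmest rows). Without control 11 and paraquat 12, 17 members fell and 6 rose, and 14 and 5 of these were called with all arrays too. The lowered share was then 21.8% against 14.2% of all genes (23.6% against 18.9% above the dimmest rows). The raised share was 7.69% against 10.1% of all genes. The line's own markers were present: 6 of 10 neuroblast markers had a row, with array means between 9.67 and 9.84 in controls and between 8.91 and 9.14 after paraquat, and 5 of the 6 fell (ISL1, PHOX2A, GATA3, ELAVL4 and STMN2). Of 5 leukocyte markers 3 had a row, with array means of 3.48 to 3.70 and 3.70 to 3.91 (PTPRC 2.67 and 2.72, CD14 raised by 0.64). Epithelial (2 of 3 markers measured) and endothelial (2 of 2) means lay between 3.83 and 5.02 over all arrays, and glial means (3 of 4) between 4.34 and 5.06. Their part in the results below was not tested.

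The promoters of the members with the largest changes are shown because they are the regulatory sequence nearest to these differences. RefSeq promoters were matched to 71 of the 78 members. The 250 bases before the annotated start are given for the 2 most lowered and the 2 most raised of the matched members, with motif matches in capitals.
PRMT6, GRCh38.p14, chr1:107056424-107056673, forward strand: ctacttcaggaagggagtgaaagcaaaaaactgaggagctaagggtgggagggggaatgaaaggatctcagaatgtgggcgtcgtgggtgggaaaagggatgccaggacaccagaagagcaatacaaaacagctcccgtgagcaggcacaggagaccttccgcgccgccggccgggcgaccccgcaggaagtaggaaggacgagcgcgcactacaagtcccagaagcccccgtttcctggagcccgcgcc
TET1, GRCh38.p14, chr10:68560087-68560336, forward strand: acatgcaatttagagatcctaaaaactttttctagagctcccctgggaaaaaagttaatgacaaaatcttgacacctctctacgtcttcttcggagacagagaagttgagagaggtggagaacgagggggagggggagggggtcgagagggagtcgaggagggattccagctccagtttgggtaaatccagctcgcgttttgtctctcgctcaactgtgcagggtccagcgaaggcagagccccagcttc
PRDM4, GRCh38.p14, chr12:107761138-107761387, reverse strand: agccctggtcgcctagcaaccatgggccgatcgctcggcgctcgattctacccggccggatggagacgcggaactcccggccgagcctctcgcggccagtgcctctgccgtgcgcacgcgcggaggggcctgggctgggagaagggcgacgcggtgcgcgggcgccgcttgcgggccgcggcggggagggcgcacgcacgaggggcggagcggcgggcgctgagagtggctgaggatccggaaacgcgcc
SIRT1, GRCh38.p14, chr10:67884406-67884655, forward strand: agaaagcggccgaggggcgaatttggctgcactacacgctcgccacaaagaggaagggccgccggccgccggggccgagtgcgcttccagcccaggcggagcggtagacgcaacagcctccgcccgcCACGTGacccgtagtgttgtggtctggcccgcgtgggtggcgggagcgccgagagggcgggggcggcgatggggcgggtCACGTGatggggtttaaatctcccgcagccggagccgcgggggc
Both strands of these windows were searched for E2F sites (TTTCCCGC, TTTGGCGC, TTTCGCGC, TTTGCCGC), the cell cycle element CHR (TTTGAA or TTCGAA), AP-1 sites (TGACTCA or TGAGTCA), the cyclic AMP element CRE (TGACGTCA), the amino acid response core CARE (TGATGCAA), the E-box (CACGTG) and the CCAAT box (CCAAT). Only SIRT1 held a match among the 4, with E-boxes that begin 123 and 44 bases before its start. The E-box occurred in 12 of the 71 member windows (16.9%) and in 7.37% of the 22199 windows of protein-coding genes. Each member had 1 window, while a coding gene may have several among the 22199, so the shares of members and coding windows are not strictly alike. Besides SIRT1 and KDM4C, the members with an E-box did not pass the test: KAT5, KDM4B, KDM6A, KMT2D, PRDM15, PRMT3, SETD6, SETDB1, TET2 and TET3. E2F letters were found in 2 member windows (2.82%, against 3.48% of coding windows), EZH1 and SIRT6, CHR letters in 5 (7.04% against 12.1%) and CCAAT in 25 (35.2% against 32.7%). AP-1 letters stood in 2 (2.82% against 3.45%), KDM4C and KDM6A, and the CRE in 1 (1.41% against 2.01%). The CARE core was in 0 of 71, against 0.595% of coding windows. These are matches of letters in a short window and describe no binding.

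Arginine methyltransferases held the largest change of all members. Of 7 measured, PRMT6, PRMT7 and PRMT9 fell (42.9%, against 14.2% of all genes and 18.9% above the dimmest rows). The family median was -0.37. With so few genes such a share is coarse, here and in the families below. PRMT6, which places asymmetric dimethylation on histone H3 (transcript cluster 2349848), had 7.88, 7.81, 7.69, 7.86 and 7.31 in controls 7, 11, 13, 17 and 19, and 6.57, 6.57, 6.69, 6.61 and 6.42 in paraquat 8, 12, 14, 18 and 20 (later lists of array values keep this order). Every paraquat array lay below every control, with control 19 the lowest of its group. PRMT6 fell 2.20-fold, from 7.71 ± 0.23 to 6.57 ± 0.10 (mean ± SD, n = 5 arrays each), a log2 change of -1.14 ± 0.12 (± SE, adjusted p = 5.59e-05 by limma).

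PRMT7, which leaves its substrates monomethylated, read 8.40, 8.32, 8.42, 8.57 and 8.39 in the controls and 8.05, 7.86, 7.90, 7.83 and 7.89 after paraquat. The groups stood apart, and the change was -0.51 ± 0.08 (adjusted p = 0.000981). PRMT9, known for methylating a splicing factor, had 7.84, 7.78, 7.47, 7.51 and 7.41 in the controls and 7.10, 7.17, 7.36, 6.59 and 7.25 after paraquat. Paraquat 18 was the lowest array, and the highest paraquat array lay just under the lowest control. Its change of -0.51 ± 0.15 (adjusted p = 0.034) was lost when any of controls 7, 11 and 17 or paraquat 8 and 12 was left out (adjusted p 0.0513 to 0.0816). PRMT2, with a change of -0.37, and PRMT3, with -0.35, did not pass. PRMT5, the main symmetric dimethylating enzyme, had -0.09, with paraquat arrays between 10.32 and 10.40 and controls between 10.27 and 10.67. PRMT8 was dim in every array (2.48 to 2.68). PRMT1 shared its row with ADM5 and was no member, and that row had a change of -0.22 (adjusted p = 0.39).

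Among 7 lysine acetyltransferases 1 fell (14.3%, against 18.9% of genes above the dimmest rows). This was KAT6B, a MYST family enzyme that acetylates histone H3 (transcript cluster 3252382). It read 9.29, 8.97, 9.42, 9.29 and 9.21 in the controls and 8.81, 8.21, 8.88, 8.63 and 8.62 after paraquat. The groups did not overlap although control 11 and paraquat 12 were the lowest of each, and the change was -0.61 ± 0.13 (adjusted p = 0.00801). Its close relative KAT6A had -0.34 ± 0.13 (adjusted p = 0.0854). KAT8, which acetylates histone H4 (0.24 ± 0.11), KAT7 (0.16 ± 0.14), the DNA damage acetyltransferase KAT5 (0.10 ± 0.16) and the coactivators KAT2A (-0.11 ± 0.10) and KAT2B (-0.22 ± 0.14) did not pass. A row shared by KAT14 and PET117 had a change of -0.49 (adjusted p = 0.0559).

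The 16 lysine methyltransferases outside the EZH pair had a median change of 0.01, and 14 of them did not pass. In this family 1 fell and 1 rose (6.25% each, against 14.2% lowered and 9.55% raised of all genes). KMT2E, a KMT2 relative whose SET domain is held to be inactive, fell: it read 8.93, 8.56, 8.77, 8.79 and 8.75 in the controls and 8.28, 7.78, 8.64, 8.11 and 8.22 after paraquat. Paraquat 14 reached above control 11, so the groups overlapped at a change of -0.55 ± 0.14 (adjusted p = 0.0188). KMT5B, which dimethylates histone H4, rose: it read 8.18, 8.48, 8.05, 8.06 and 8.12 in the controls and 8.53, 8.44, 8.62, 8.38 and 8.48 after paraquat. Control 11 was as high as the paraquat arrays. The change of 0.31 ± 0.10 (adjusted p = 0.0456) passed without control 11 (adjusted p = 0.00657) but not without any other single array (0.0539 to 0.112), nor with consecutive title numbers as a block (0.0619). The large activating enzymes KMT2A, KMT2B, KMT2C and KMT2D, which methylate histone H3 at promoters and enhancers, had changes of 0.05, 0.28, -0.08 and -0.15. A further row assigned to KMT2A had 0.10. SETD2, which trimethylates histone H3 in transcribed genes, had 0.03 ± 0.17, and SETDB1, which silences retroelements, 0.11 ± 0.12. SETD3, in truth a histidine methyltransferase of actin, had -0.16 ± 0.09. The row of KMT5A was dim in every array (2.28 to 3.15) and its change is not interpreted.

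EZH2, the catalytic subunit of the repressive complex PRC2 in dividing cells, did not pass. EZH2 read 10.38, 10.37, 10.24, 10.26 and 10.12 in the controls and 10.06, 10.07, 10.20, 9.70 and 9.89 after paraquat. Paraquat 14 lay inside the control range, and the change was -0.29 ± 0.11 (adjusted p = 0.075). It passed with array weights (adjusted p = 0.0187) and without paraquat 14 (0.0409). EZH1, the form found in resting cells, had 0.07 ± 0.09 (adjusted p = 0.694). Of 9 PRC2 partners, 1 rose (PHF1, 0.57) and 1 fell (JARID2, -0.43), and the list's median was -0.30. Each is 11.1% of the list, against 11.8% raised and 18.9% lowered among genes above the dimmest rows.

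Of 4 DNA methyltransferases 2 fell (50%, against 14.2% of all genes). DNMT3B, which sets new methylation (transcript cluster 3882012), fell: it read 7.00, 6.78, 7.21, 7.24 and 6.94 in the controls and 6.66, 6.24, 6.65, 6.61 and 6.55 after paraquat. The groups did not overlap, and the change was -0.49 ± 0.12 (adjusted p = 0.0121). DNMT1, which copies methylation onto new DNA strands, fell by less: it read 9.84, 9.68, 9.98, 9.95 and 9.79 in the controls and 9.63, 9.37, 9.61, 9.53 and 9.47 after paraquat. Its highest paraquat array lay just under control 11, at a change of -0.32 ± 0.09 (adjusted p = 0.0244). That call was lost without control 13 or 17 or paraquat 12 or 20 (adjusted p 0.0551 to 0.0671), after median centring (0.0521) and after quantile normalization (0.071). DNMT3A, the other enzyme of new methylation, had 8.91, 8.52, 8.83, 8.79 and 9.19 in the controls and 8.88, 8.87, 9.11, 8.98 and 9.08 after paraquat, so its groups overlapped (0.13 ± 0.12, adjusted p = 0.512). DNMT3L, a cofactor without catalytic activity, was dim (0.12 ± 0.09). Beside DNMT1, 2 of 7 measured genes of methylation maintenance and reading fell (28.6%, against 18.9% of genes above the dimmest rows). They were UHRF1 (-1.40), which brings DNMT1 to newly copied DNA, and the remodeller HELLS (-0.86). Genes of cell division, listed beside them, had a median of -1.31. Of these 13 genes 12 fell (92.3%, against 18.9% of genes above the dimmest rows). Their array means lay between 9.70 and 9.99 in controls and between 8.38 and 8.82 after paraquat, and their part in the changes of DNMT1, DNMT3B and EZH2 was not tested. In bulk RNA, fewer cells in division and less of a transcript in each cell cannot be told apart.

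Of the 3 TET dioxygenases 1 fell (33.3%, against 18.9% of genes above the dimmest rows), TET1 (transcript cluster 3249886). It read 8.14, 7.64, 8.35, 8.31 and 7.87 in the controls and 7.71, 6.57, 7.45, 7.15 and 7.16 after paraquat. Paraquat 12 was lowest, and paraquat 8 lay above control 11, so the groups overlapped. The change was -0.86 ± 0.21 (adjusted p = 0.0132), a 1.81-fold fall, and it passed without each array in turn (adjusted p 0.00684 to 0.0374). TET2 had -0.26 ± 0.20 and TET3 0.34 ± 0.17, and neither passed (adjusted p = 0.439 and 0.212). With consecutive title numbers as a block TET3 passed upward (adjusted p = 0.0458).

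**Figure D1:**
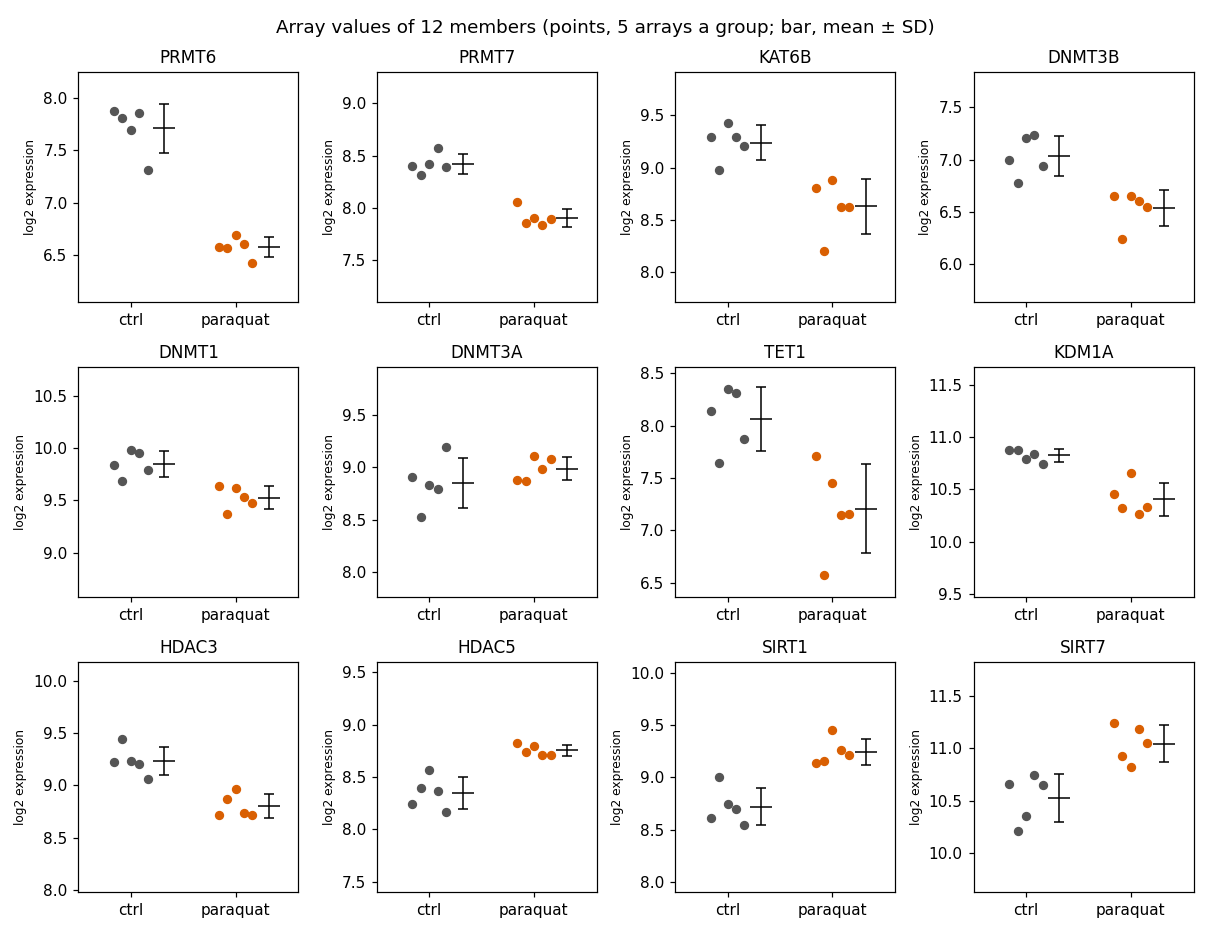
Log2 expression (y axis, each panel spanning the same range of 2.2) of 12 members in the 5 ctrl and 5 paraquat arrays. Points are arrays and the bar beside them is the mean ± SD. For PRMT6 all paraquat arrays lie below 6.70 and all controls above 7.30, while the groups of DNMT3A and TET1 overlap.

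Of 11 lysine demethylases 4 fell (36.4%, against 18.9% of genes above the dimmest rows): KDM4C, KDM2B, KDM1A and KDM3B. KDM1A, the amine oxidase LSD1 that removes activating methyl groups as part of the CoREST complex, read 10.87, 10.88, 10.79, 10.84 and 10.74 in the controls and 10.45, 10.32, 10.66, 10.26 and 10.33 after paraquat. The 5 controls lay within 10.74 to 10.88, above every paraquat array, and the change was -0.42 ± 0.09 (adjusted p = 0.00665). KDM4C, a Jumonji enzyme of repressive methylation, had 6.86, 6.71, 6.73, 6.99 and 6.67 in the controls and 6.63, 6.13, 6.45, 6.08 and 6.34 after paraquat. Its highest paraquat array lay under the lowest control, at a change of -0.46 ± 0.12 (adjusted p = 0.0174). KDM2B, which brings Polycomb proteins to CpG islands, had 7.51, 7.46, 7.95, 7.78 and 7.71 in the controls and 7.36, 7.18, 7.40, 7.22 and 7.14 after paraquat. Its groups were also apart, at -0.42 ± 0.11 (adjusted p = 0.0173).

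KDM3B read 10.08, 9.72, 10.13, 10.02 and 9.93 in the controls and 9.69, 9.39, 9.90, 9.51 and 9.55 after paraquat. Paraquat 14 lay above control 11, and the change of -0.37 ± 0.12 (adjusted p = 0.0426) was kept without control 11 or paraquat 14 and lost without any other single array (adjusted p 0.0597 to 0.101). It was also lost after median centring (0.0591) and quantile normalization (0.0755). KDM4A (0.25 ± 0.12), KDM4B (0.17 ± 0.09), KDM2A (0.20 ± 0.16) and KDM6A (0.25 ± 0.12), which removes Polycomb methylation, had positive changes that did not pass. KDM4D (-0.38 ± 0.22) and KDM8 (-0.08 ± 0.09) had negative changes that did not pass either. KDM5A, an eraser of promoter methylation, had -0.03 ± 0.12. KDM6B, a relative of KDM6A known from inflammatory activation, was no member because its row was shared with TMEM88. That row read 7.55, 7.29, 7.80, 7.57 and 7.98 in controls and 8.26, 7.89, 8.17, 7.96 and 7.95 after paraquat. The groups overlapped through control 19, and the change of 0.41 ± 0.13 did not pass (adjusted p = 0.0514). RCOR2, a CoREST partner of KDM1A, fell (-0.99), as did the HDAC scaffold SIN3A (-0.46), out of 11 measured corepressors with a median of -0.00. Thus 18.2% of that list fell, against 18.9% of genes above the dimmest rows.

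The zinc-dependent deacetylases are given by class. All 4 class I enzymes had negative changes, as had 5592 of the 9911 genes above the dimmest rows. Of these 4 enzymes 2 fell (50%, against 18.9% of those genes), HDAC3 and HDAC8. Over all 11 deacetylases 2 fell (18.2%) and 1 rose (9.09%, against 11.8%). HDAC3, the catalytic subunit of the NCoR corepressor, read 9.22, 9.44, 9.24, 9.21 and 9.06 in the controls and 8.71, 8.87, 8.96, 8.73 and 8.72 after paraquat. The groups did not overlap, and the change was -0.43 ± 0.09 (adjusted p = 0.00671). HDAC8, which deacetylates cohesin, had 8.06, 8.55, 8.02, 8.20 and 8.22 in the controls and 7.83, 8.02, 7.80, 7.71 and 7.93 after paraquat. Paraquat 12 reached the level of control 13, and the change of -0.35 ± 0.11 (adjusted p = 0.0456) was lost without controls 11, 17 or 19 or paraquat 8, 14, 18 or 20 (adjusted p 0.0628 to 0.104) and after median centring (0.0812) or quantile normalization (0.0835). HDAC1 read 9.87, 10.47, 9.72, 9.81 and 10.11 in the controls and 9.13, 9.90, 9.64, 9.31 and 9.44 after paraquat. Control 11 was highest, and the change of -0.52 ± 0.17 did not pass (adjusted p = 0.0594). HDAC2 had -0.18 ± 0.18.

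Of the 4 class IIa enzymes, which shuttle between nucleus and cytoplasm and restrain MEF2 factors, HDAC5 rose. It read 8.25, 8.39, 8.57, 8.36 and 8.17 in the controls and 8.83, 8.74, 8.80, 8.71 and 8.71 after paraquat, without overlap, at a change of 0.41 ± 0.09 (adjusted p = 0.00715). HDAC4 (-0.26 ± 0.10), HDAC9 (-0.14 ± 0.16) and HDAC7 (0.21 ± 0.11) did not pass. HDAC6, the tubulin deacetylase, had -0.28 ± 0.11, HDAC10 0.32 ± 0.16 and HDAC11, the class IV enzyme, 0.23 ± 0.12, and these did not pass.

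Of 7 sirtuins 2 rose (28.6%, against 9.55% of all genes and 11.8% above the dimmest rows), SIRT1 and SIRT7. SIRT1, a nuclear enzyme that deacetylates p53 and FOXO factors as well as histones, read 8.62, 9.0, 8.75, 8.70 and 8.55 in the controls and 9.14, 9.16, 9.46, 9.26 and 9.21 after paraquat. Every paraquat array lay above every control, with control 11 the highest control. SIRT1 rose 1.44-fold, from 8.72 ± 0.17 to 9.25 ± 0.13 (mean ± SD, n = 5 arrays each), a change of 0.52 ± 0.10 (adjusted p = 0.00424). SIRT7, a nucleolar enzyme, read 10.65, 10.21, 10.36, 10.75 and 10.65 in the controls and 11.24, 10.92, 10.83, 11.19 and 11.05 after paraquat. Its groups did not overlap, at a change of 0.52 ± 0.13 (adjusted p = 0.0134). The mitochondrial SIRT3 had -0.28 ± 0.10 (adjusted p = 0.0677), with paraquat 12 alone among paraquat arrays inside the control range. SIRT5, also mitochondrial, had -0.00 ± 0.15, SIRT6 0.07 ± 0.11 and SIRT2, mostly cytoplasmic, -0.12 ± 0.12, and SIRT4 was dim.

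In the PRDM family 2 of 10 rose (20%, against 9.55% of all genes) and 1 fell (10% against 14.2%). PRDM4, a partner of the neurotrophin receptor NGFR, read 8.97, 8.73, 9.28, 9.19 and 8.92 in the controls and 9.65, 9.43, 9.66, 9.61 and 9.53 after paraquat. The groups were apart, at a change of 0.56 ± 0.11 (adjusted p = 0.00416), the largest increase of all members. PRDM8, a repressor of the nervous system, read 6.92, 6.71, 6.99, 6.87 and 6.77 in the controls and 6.41, 6.12, 6.37, 6.22 and 6.45 after paraquat, again without overlap (-0.54 ± 0.09, adjusted p = 0.00196). PRDM11 rose by 0.28 ± 0.09 (adjusted p = 0.0446), from 6.27 to 6.54 in controls to 6.55 to 6.85 after paraquat. That call was lost without controls 7, 11, 13 or 19 or paraquat 8, 18 or 20 (adjusted p 0.0524 to 0.117) and without control 11 and paraquat 12 together (0.053). PRDM1 and PRDM14 were dim. PRDM12 varied most within controls (4.85 to 6.12) and had -0.07 ± 0.25.

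For 17 pairs of related enzymes the within-array difference of log2 values, first gene minus second, was compared between the groups. The pairs were picked within families with the changes of their genes already known, so these values are a description and carry no test. In 6 pairs the 5 paraquat arrays did not overlap the 5 controls. No share over other gene pairs was computed, so this count has no background to be read against.

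TET1 minus TET3 lay between -0.09 and 0.53 in controls and between -1.34 and -0.15 after paraquat, a change of -1.20 ± 0.23 (log2 ± SE), with the change of TET2 between those of TET1 and TET3. KDM4A minus KDM4C was 1.71 to 2.10 in controls and 2.27 to 2.91 after paraquat, a difference of 0.71 ± 0.14. The change was 0.62 ± 0.12 for KDM2A minus KDM2B, -0.66 ± 0.10 for HDAC4 minus HDAC5 and -0.61 ± 0.12 for HDAC6 minus HDAC10. HDAC10 was taken from its own row (0.32), and a row it shares with MAPK12 had a change of 0.02. KAT6A minus KAT6B changed by 0.27 ± 0.05, from between -0.61 and -0.47 in controls to between -0.37 and -0.14 after paraquat. These are the 6 pairs whose arrays did not overlap.

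The other pairs overlapped. DNMT3A minus DNMT3B had a change of 0.63 ± 0.14, EZH1 minus EZH2 of 0.36 ± 0.10, HDAC1 minus HDAC2 of -0.33 ± 0.11 and SIRT6 minus SIRT7 of -0.45 ± 0.15. KMT5B minus KMT5C had 0.39 ± 0.16 and KMT2A minus KMT2B -0.23 ± 0.10. For PRMT7 and PRMT9, which both fell, the difference was -0.01 ± 0.17. Without control 11 and paraquat 12 the TET1 to TET3 value was -1.06 and the DNMT3A to DNMT3B value 0.56. The chart of relatives shows the pairs ordered by this difference.

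**Figure D2:**
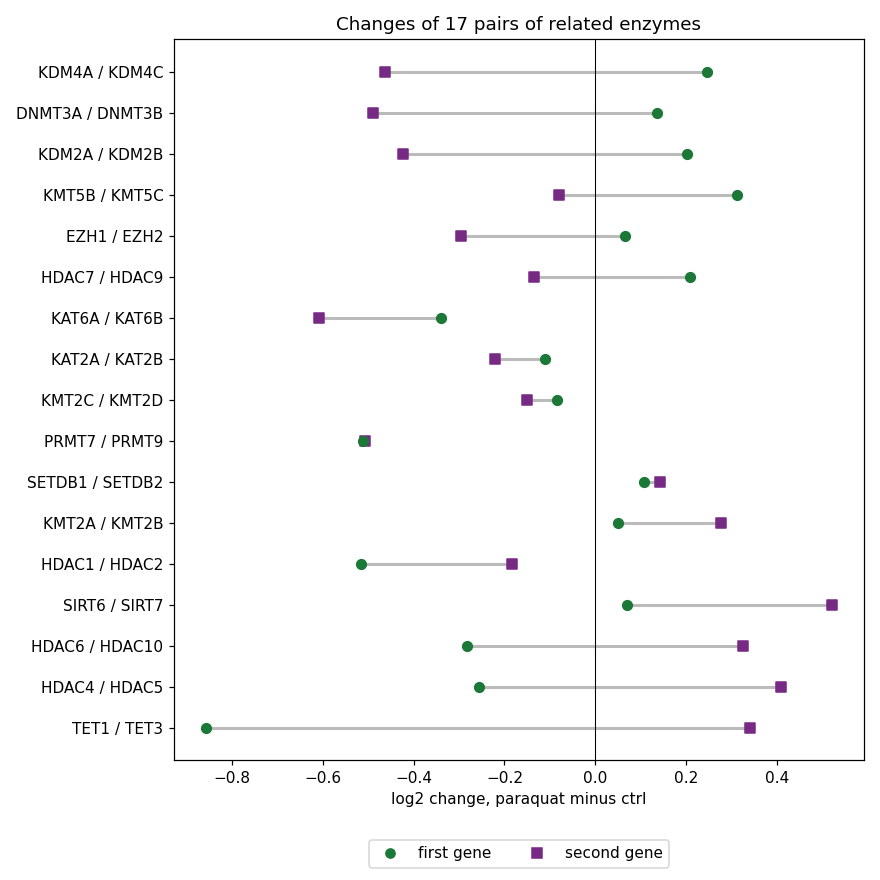
Log2 changes (paraquat minus ctrl, x axis) of both genes of 17 pairs of related enzymes, joined by a line; circles are the first gene named and squares the second. The pairs are ordered by the difference of the changes, which is shown without a test. TET1 (-0.86) and TET3 (0.34) are the furthest apart, and PRMT7 and PRMT9 (both -0.51) coincide.

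Among writers and erasers that the name rule does not reach, 5 of 24 measured fell and 2 rose, at a median of -0.19. These shares of 20.8% and 8.33% lie near the 18.9% lowered and 11.8% raised of genes above the dimmest rows. EHMT2, the G9a enzyme of repressive histone H3 methylation, fell by 0.71, the methyltransferase SMYD3 by 0.70 and SUV39H2, which marks heterochromatin, by 0.64. JMJD1C (0.45) and HR (0.33), both Jumonji domain proteins, rose. Of 12 bromodomain and chromodomain readers 3 fell (25%) and 1 rose (8.33%), beside the same background. Those that fell were CBX2 (-0.68) of Polycomb and the heterochromatin proteins CBX5 (-0.68) and CBX1 (-0.56). BRD2 (0.64), which binds acetylated histones, rose. Of 7 partners of the KMT2 complexes 1 (14.3%) fell, PAXIP1 (-0.48). The 8 measured genes of the Polycomb complex PRC1 had changes between -0.18 and 0.32 with a median of 0.03, and the lowest adjusted p was 0.131, for RING1.

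**Figure D3:**
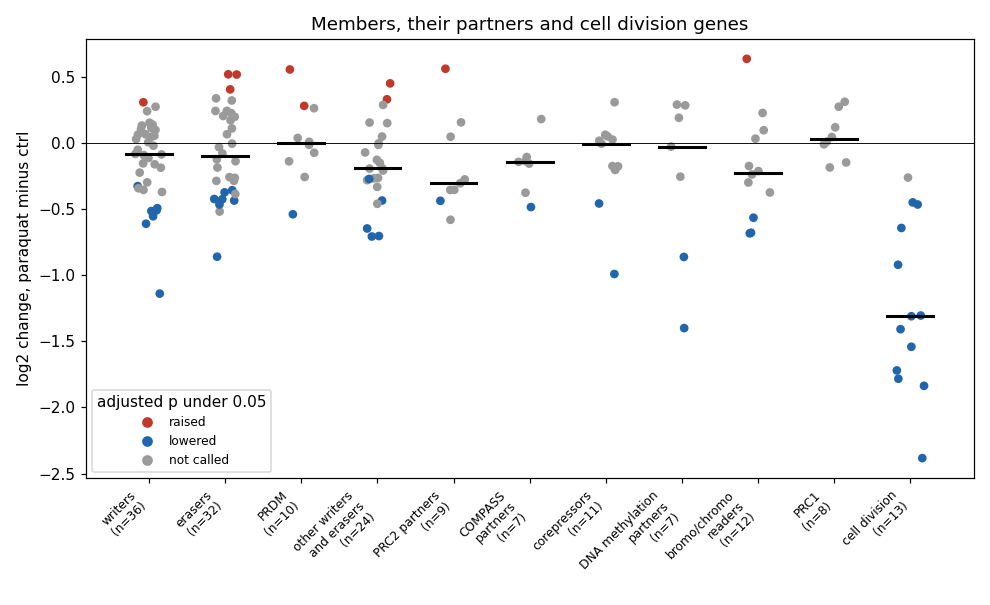
Log2 change (paraquat minus ctrl, y axis) of writers, erasers, PRDM genes, 7 lists of chromatin partners and a list of cell division genes; each point is a gene and each black line a list median. Red and blue mark genes that rose or fell at an adjusted p under 0.05. The cell division list has a median of -1.31, and the chromatin lists have medians between -0.30 and 0.03.

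Not every gene of these families was measured alone. Of 96 RefSeq coding genes that match the name rule, 10 were only on rows shared with another gene (KAT14, KDM5B, KDM5C, KDM5D, KDM6B, PRDM2, PRDM7, PRDM9, PRMT1 and SETD4), and 8 had no named row here, among them SETD1A, SETD1B, KDM1B and KDM7A. Of the 14 shared rows that name a family gene, those of KDM6B and KAT14 came closest to the threshold. The row shared by KDM5B and COX7C had a change of 0.09 and that of KDM5C and KDM5D 0.04. Some members also stood on a shared row, and none of these rows passed. HDAC10 with MAPK12 had 0.02 (0.32 in its own row), KAT5 with RNASEH2C -0.24 (0.10) and KMT2A with MLLT1 -0.03 (0.05). Dim rows of PRDM10 with FABP1 and of KMT2C with BAGE2 and BAGE5 had -0.11 (-0.25) and 0.09 (-0.08).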

How the data were processed

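Total RNA of 10 SH-SY5Y samples, 5 ctrl and 5 paraquat, was hybridised to Affymetrix exon arrays after ribosomal RNA depletion, per the labels' protocols. The deposited values are log2 expression made by the authors with RMA, per the submitters' processing notes; the log2 scale was read from the range of 1.07 to 14.37. Of software, summary level, filter and build nothing is given in the sources used here. RMA shrinks changes of dim rows, no detection calls were used, and the number of arrays limits the precision (median standard error 0.13).

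Paraquat was compared with ctrl on all 22011 rows in limma 3.58.1 (R 4.3.3), with group as the only term, 8 residual and 3.06 prior degrees of freedom, two-sided tests and Benjamini-Hochberg adjustment over all rows. On simulated data with independent noise in each array, 85% of 200 rows shifted by 1 were recovered, with 8 false calls. Smaller shifts, such as those of all called members but PRMT6, were not simulated. 1 gene that the naming rule reaches was left out of the members and is not reported here. A gene was represented by its single-symbol row with the highest mean. All 78 members matched RefSeq (GRCh38.p14) by gene ID with the same symbol; promoter sequences come from that table. Motif shares are over promoter windows of equal length, 1 window per member but every listed window of the coding genes. Members, lists, relatives and the naming rule (up to 4 called genes per role with all array values; DNMT, TET and EZH always) were chosen with earlier results of these data known. The alternatives were 2 scalings, a filter on dim rows, row averaging, array weights, another variance prior, stricter thresholds, leaving out arrays, and a block of consecutive title numbers.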

Additional observations from a re-analysis of the deposited data

Results flagged for a closer look

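DNMT3B in paraquat 12 had a log2 value of 6.24, against 6.55 to 6.66 in the other paraquat arrays, and its gap to them was 0.75 of the group's range. It was the 1 such value among 54 groups of 5 arrays examined (27 genes), where chance gives about 1 in 20. Without paraquat 12 DNMT3B still fell, with a log2 change of -0.42 (adjusted p = 0.0233 by limma).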

How the results depend on the processing

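Of 21 called members, 15 kept their call without each array in turn, and only 1, PRMT6, kept it under all 20 settings. No called member changed direction, but several settings could not change it. The stricter thresholds, the other variance prior, the filter on dim rows and the block leave the log2 change as it was. Most other settings leave out 1 array, so the held direction says little about stability. With 1 array left out, 11 to 16 members fell (14.1% to 20.5%, against 11.0% to 15.0% of all genes). In these fits 4 to 6 rose (5.13% to 7.69%, against 7.69% to 10.5%). The writers' median then lay between -0.09 and -0.04 and the erasers' between -0.10 and -0.07. With array weights 25 members fell, among them the 15 called without weights. At an adjusted p under 0.01, 6 fell and 3 rose. Tested against a fold of 1.2 in limma, 1 fell and 0 rose (8 and 3 at an unadjusted p under 0.05). Of all genes 5.42% fell and 3.83% rose in that test after adjustment. After median centring 12 fell (15.4%, against 12.6% of all genes) and 6 rose (7.69% against 11.2%). After quantile normalization 13 fell (16.7% against 13.6%) and 6 rose (7.69% against 10.9%). With consecutive title numbers as a block, 22 fell, among them the 15, and 6 rose. Deviations within those pairs correlated at 0.46 for control 11 with paraquat 12 and at 0.09 to 0.23 for the others. The labels do not say that the numbers pair the arrays. Signal limits 6 members in the dimmest 33.3% of rows, where RMA shrinks changes.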
